A study of Mus musculus with 6 samples.

Results

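The mitochondrial respiratory chain genes encoded in the nucleus were examined in lenses of newborn mice (postnatal day 0). The genes were chosen by symbol alone: every probe set with a single platform symbol beginning Nduf followed by a, b, c, s or v, with Sdha to Sdhd, or beginning Uqcr, Cox4 to Cox8 or Atp5. The rule found 156 probe sets of 84 genes, out of 12393 genes represented on the array, and each gene was read from its probe set of highest mean. By symbol, 34 of the 84 genes were placed with complex I subunits, and 5 are complex I assembly factors of the Ndufaf series. Another 4 belong to complex II, 8 to complex III, 16 to complex IV and 17 to complex V. The 34 include Ndufa4, known as a subunit of complex IV, which stays with complex I in every count and median below.

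The samples were 3 lens samples from Le-AP-2alpha conditional mutants, in which Tfap2a (older symbol Tcfap2a), the gene of the transcription factor AP-2alpha, is targeted, and 3 from wild-type littermates, with 1 array each and 6 arrays in all. All were newborn, and none is labelled as treated. The labels name neither the Cre driver nor the deleted part of the gene, and leave unsaid whether the littermates carry an altered allele and how many animals went into a sample. The p-values therefore cover only the variation among these 6 samples, which may be partly technical. In published work the Le-Cre driver uses Pax6 regulatory sequence and is active in the surface ectoderm that gives rise to the lens and to neighbouring surface tissues such as the cornea.

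The respiratory chain passes electrons from NADH (complex I) and succinate (complex II) through ubiquinone, complex III and cytochrome c to oxygen at complex IV, and complex V uses the resulting proton gradient to make ATP. Its subunits are encoded by nuclear and mitochondrial genes, and those described here are nuclear. In the lens, the epithelium and young outer fibre cells carry mitochondria, whereas maturing fibres break theirs down together with their nuclei, and the clear core lives mainly on glycolysis.

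Transcription of these nuclear genes is known to involve nuclear respiratory factor 1 (NRF1), ETS-family factors of the GABP type, and YY1. RefSeq promoter windows (GRCm38.p6), from 250 bases before to 50 after a transcript start, were at hand for 70 of the 84 genes, in 75 windows, since some genes have several. The NRF1 palindrome, shown in capitals in 3 of the sequences that follow, was in 6 of the 75 windows (8%), against 0.971% of all 32851 windows. The core ETS letters CCGGAAG, on either strand, were in 18 (24%), against 8.86% of all, and the YY1 letters ATGGCGGC, on either strand, in 6 (8%), against 2.24%. The AP-2 letters GCCNNNGGC, which read alike on both strands, were in 13 (17.3%), against 16.6% of all windows, and the TATA letters TATAAA, on either strand, in 8 (10.7%), against 13.6%. The member windows had a median GC content of 58.7%, against 52.7% for all windows. These are matches of letters, not measured binding.

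To show such matches in each complex, the 250 bases before the start are printed for 6 genes, 5′ to 3′ on the gene's strand, with every match of the searched motifs in capitals. The first carries the AP-2 letters and belongs to the complex I gene with the second lowest p among those lower in mutants. The others carry NRF1 letters (Ndufaf4, Cox6a1, Atp5g2) or the ETS letters (Sdhd, Uqcr11), which read CTTCCGG on the other strand. Cox6a1 carries the ETS letters as well, close to its start.
Ndufb2, complex I, chr6:39592315-39592564, plus strand: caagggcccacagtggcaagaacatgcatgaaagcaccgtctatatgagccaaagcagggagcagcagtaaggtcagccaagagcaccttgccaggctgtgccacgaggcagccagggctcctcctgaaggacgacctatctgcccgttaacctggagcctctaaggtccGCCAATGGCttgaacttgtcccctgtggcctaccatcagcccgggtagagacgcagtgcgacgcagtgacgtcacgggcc
Ndufaf4, complex I assembly, chr4:24897833-24898082, plus strand: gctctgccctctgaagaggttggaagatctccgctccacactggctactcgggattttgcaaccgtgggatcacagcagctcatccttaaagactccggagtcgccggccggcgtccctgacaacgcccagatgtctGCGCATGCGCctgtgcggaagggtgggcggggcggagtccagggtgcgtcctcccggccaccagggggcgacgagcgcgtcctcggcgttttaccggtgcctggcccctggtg
Sdhd, complex II, chr9:50603850-50604099, minus strand: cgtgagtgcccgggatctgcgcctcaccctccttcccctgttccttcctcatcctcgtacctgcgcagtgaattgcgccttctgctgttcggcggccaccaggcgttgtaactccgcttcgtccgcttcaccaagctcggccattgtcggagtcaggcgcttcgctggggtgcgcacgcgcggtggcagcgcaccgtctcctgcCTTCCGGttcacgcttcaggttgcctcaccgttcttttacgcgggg
Uqcr11, complex III, chr10:80406822-80407071, minus strand: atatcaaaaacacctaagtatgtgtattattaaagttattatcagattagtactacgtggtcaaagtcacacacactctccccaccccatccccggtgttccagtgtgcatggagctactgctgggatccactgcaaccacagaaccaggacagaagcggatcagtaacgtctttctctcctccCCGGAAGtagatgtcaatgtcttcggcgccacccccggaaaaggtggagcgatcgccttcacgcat
Cox6a1, complex IV, chr5:115348959-115349208, minus strand: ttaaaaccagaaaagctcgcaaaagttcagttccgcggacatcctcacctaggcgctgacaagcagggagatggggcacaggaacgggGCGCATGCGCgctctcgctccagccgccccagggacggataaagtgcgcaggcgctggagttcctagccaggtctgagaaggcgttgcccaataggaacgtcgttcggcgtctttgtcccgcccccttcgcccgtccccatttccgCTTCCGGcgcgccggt
Atp5g2, complex V, chr15:102671048-102671297, minus strand: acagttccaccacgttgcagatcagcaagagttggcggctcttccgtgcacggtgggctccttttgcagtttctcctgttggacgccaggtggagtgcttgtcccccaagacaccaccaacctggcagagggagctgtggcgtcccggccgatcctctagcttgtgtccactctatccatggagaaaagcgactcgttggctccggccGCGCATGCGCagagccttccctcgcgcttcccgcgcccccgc

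The targeted gene was read first. Of the 3 probe sets of Tfap2a, that of highest mean was at 9.57, 9.64 and 9.83 log2 in the arrays labelled mutant and 8.36, 9.26 and 9.56 in those labelled wild type, a difference of 0.62 ± 0.33 (SE, as after each ± below; limma adjusted p of 0.999). The other 2 probe sets differed by 1.57 ± 0.49 and 0.36 ± 0.36, so that none was lower in the mutant arrays. Whether these probe sets lie in the deleted part of the gene is not given in the labels; if they lie outside it, their values check nothing, and the genotype labels are used as given. Mutant and wild type below mean the arrays so labelled, in every direction stated.

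Across all arrays, wild-type replicate 1 stood apart, with correlations over all probe sets of 0.926 to 0.945 with the others, against 0.974 to 0.985 among those 5. Lens fibre genes such as Cryaa and Mip were bright in every sample. The mean log2 intensity of 7 fibre markers was 11.77 to 11.94 in mutants and 12.21 to 12.38 in wild types, with 6 of 7 lower in mutants. Most of that gap came from Dnase2b (-1.44), Gja3 (-0.72) and Bfsp1 (-0.65). Crybb1, Cryaa, Cryba1 and Mip differed by -0.15, -0.05, -0.02 and 0.03, and the median of the 7 was -0.15. Genes of retina and neurons were measurable too. The summed intensity of 10 such markers was 4081 to 5055 in mutants, and 818, 2506 and 3301 in wild-type replicates 1 to 3, lowest on wild-type replicate 1. That of 10 macrophage markers was 547, 2388 and 575 in mutant replicates 1 to 3 and 362 to 575 in wild types, highest on mutant replicate 2. All 10 markers of each of these lists had a higher value in mutants. Markers of lens epithelium, which carries mitochondria, had a mean log2 intensity of 7.42 to 7.56 in mutants and 7.97 to 8.25 in wild types. Of these, 4 of 5 were lower, with differences of -1.29 (Cdh1), -1.04 (Slc38a3), -0.71 (Foxe3) and -0.36 (Pdpn). Pax6 was higher, by 0.47, and each of the 5 had a limma adjusted p of 0.999. Of 12 skeletal muscle markers, 11 lay below the median probe set.

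Most respiratory chain genes were well measured: 79 of the 84 lay at or above the median probe set, whose mean log2 intensity was 5.26, and the 5 below it were Ndufb1, Cox4i2, Cox7a1, Cox8b and Cox8c. No gene of the chain differed between mutant and wild-type lenses past the threshold of an adjusted p of 0.05 (limma, adjusted over all 22626 probe sets); 0 members passed, each with an adjusted p of 0.999, and 0% of all probe sets passed. At an unadjusted p under 0.05 there were 2 members, Ndufb1 (lower) and Cox7c (higher), against 3.85% of all genes, 1.72% being lower.

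Small differences leaned to lower values in mutants. The log2 difference, mutant minus wild type, was below 0 for 57 of the 84 genes (67.9%) and above 0 for 27, against 52.2% of all genes below 0, and its median was -0.09, against -0.01 for all genes and 0.03 for the genes at or above the median probe set. The lean moved with single arrays. Without wild-type replicate 1, 34 of the 84 were lower and the median was 0.05, whereas it was -0.31 without wild-type replicate 2 and -0.22 without mutant replicate 2. The differences ran from -1.08 to 0.62, and 64 of 84 (76.2%) lay within 0.25 of 0, against 59.1% of all genes. In all 84 genes the difference was smaller than the range over the 3 wild-type arrays, as it was for 90% of all genes. Most lens epithelium and lens fibre markers also had lower values in mutants, none past the threshold. Their part in this lean was not tested. In whole lenses, fewer cells of a type and less RNA per cell cannot be told apart.

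**Figure D1:**
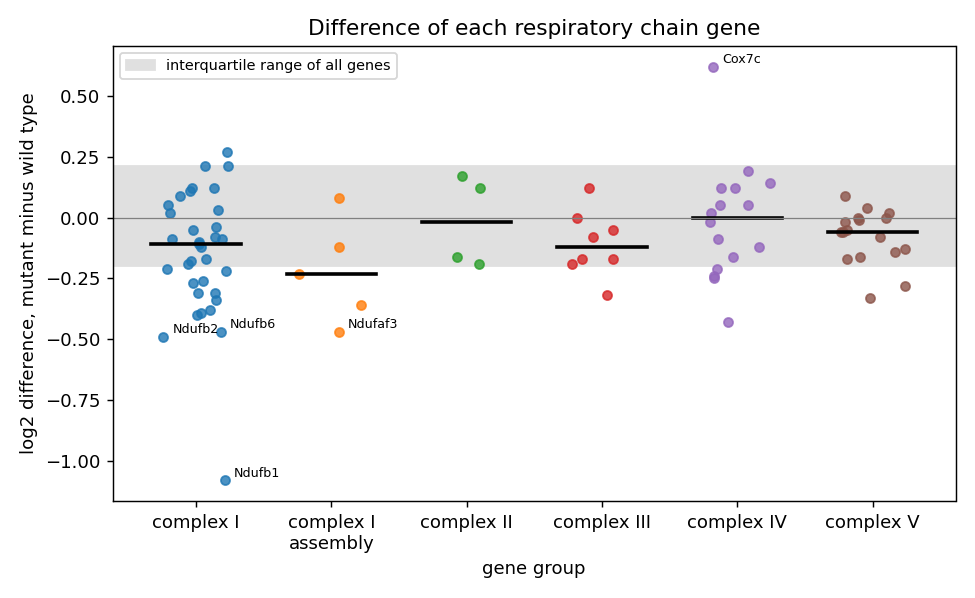
Log2 difference, mutant minus wild type (n = 3 arrays each), of each respiratory chain gene (points) by complex, with the median of each group (black line) and the interquartile range of all genes (grey band, -0.20 to 0.21). Most points lie in the band; Ndufb1 at -1.08 and Cox7c at 0.62 are farthest from 0.

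The complexes were compared by their medians and counts. Complex I subunits had a median log2 difference of -0.11, with 24 of 34 lower in mutants, and its assembly factors -0.23, with 4 of 5 lower. Complex II had a median of -0.02, with 2 of 4 lower, and complex III -0.12, with 7 of 8 lower. Complex IV had a median of 0.00, with 8 of 16 lower, and complex V -0.06, with 12 of 17 lower. Without wild-type replicate 1 the medians were 0.02 for complex I, 0.01 for its assembly factors, 0.19 for complex II, 0.02 for complex III and 0.06 each for complexes IV and V, so that none of the lower medians kept its sign. The median of complex III also turned, to 0.04, without wild-type replicate 3, and complex V had 8 of 17 lower without mutant replicate 3. Complex V genes varied least over the 6 arrays, with a median SD of 0.27, against 0.40 to 0.47 in the other groups. It was 0.36 for all genes and 0.45 for those at or above the median probe set. Within complex IV it was 0.33 for the 10 widely expressed subunits and 0.59 for the 6 isoforms restricted to certain tissues. Complex V also had the highest median level of these groups, 10.85, and the part of compression at bright levels was not tested.

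The genes moved with the array more than with the genotype. Each gene's deviation from its own mean over the 6 arrays was taken, and the median over the 84 genes was -0.11, 0.11 and -0.20 on mutant replicates 1 to 3 and 0.35, -0.32 and 0.23 on wild-type replicates 1 to 3. Wild-type replicates thus held both the highest and the lowest array, and the mutants lay between them. Over all genes these medians were within 0.07 of 0 on every array. Wild-type replicate 1 was the highest array for 40 of the 84 genes (47.6%) and the lowest for 7 (8.33%), against 35.3% and 35.1% of all genes at or above the median probe set. Wild-type replicate 2 was the lowest array for 42 (50%), against 23.1%. The wild types spread more than the mutants in 70 of the 84 genes (83.3%), against 77.3% of the genes at or above the median probe set.

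**Figure D2:**
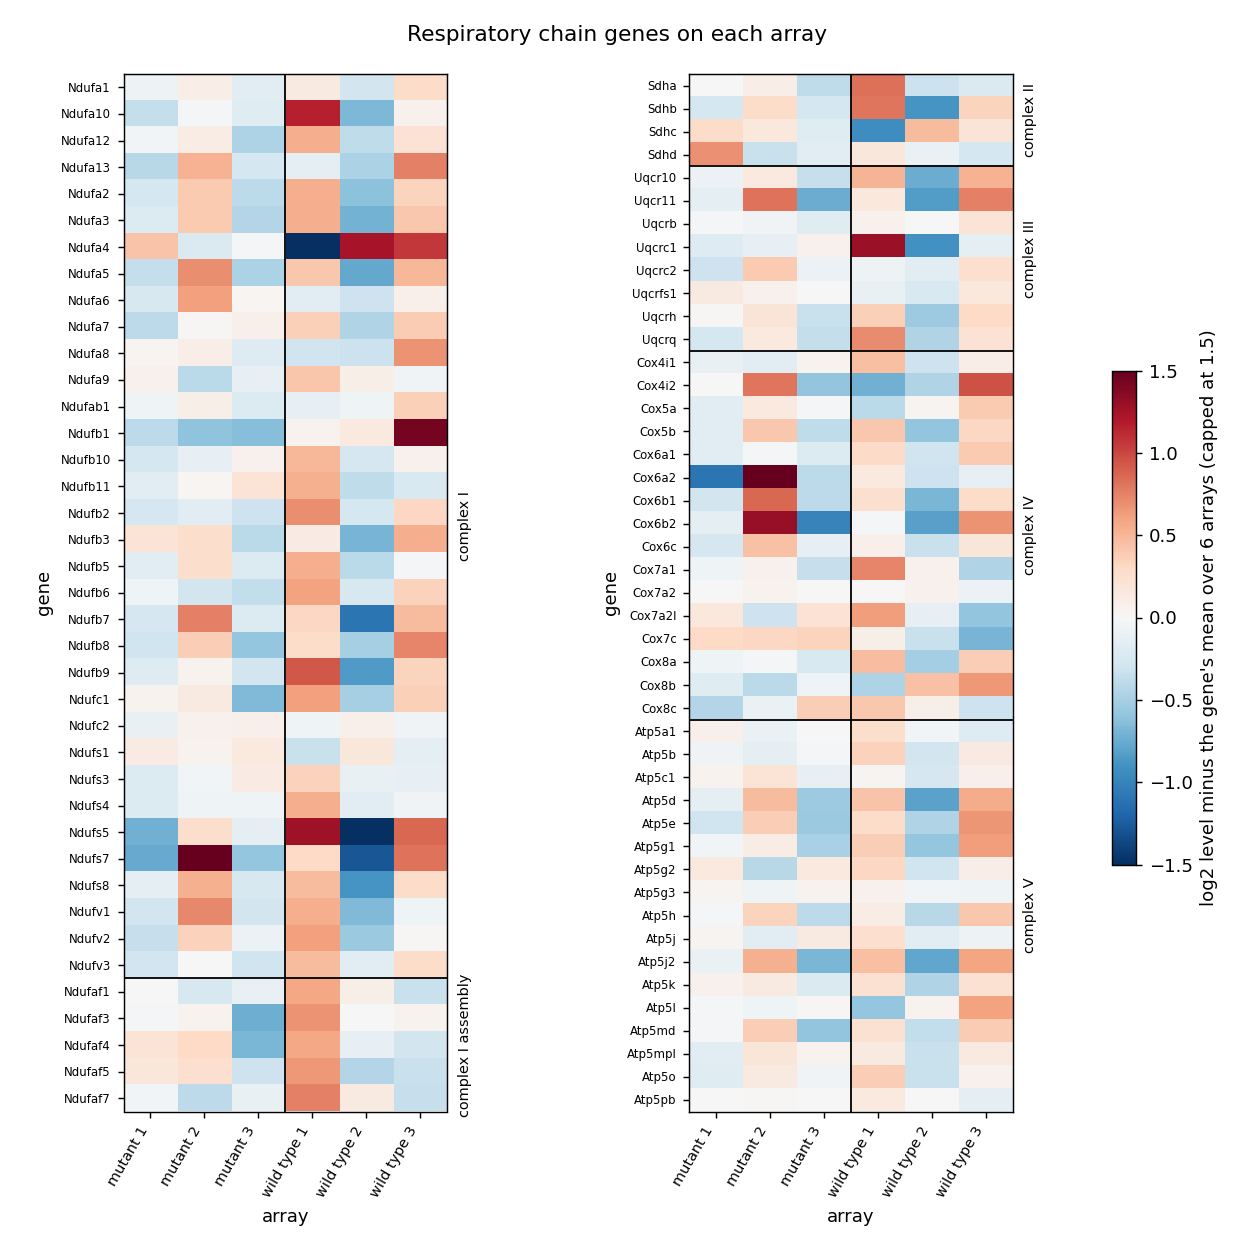
Each respiratory chain gene (rows, by complex) on each array (columns, mutants left), as log2 intensity minus the gene's mean over the 6 arrays; red is above and blue below that mean. Wild-type replicate 1 is mostly red and wild-type replicate 2 mostly blue. Some genes are the other way round, among them Ndufa4, Sdhc, Ndufs1 and Cox8b.

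All subunit groups shared this order in part. On wild-type replicate 2 the median deviation was -0.39 for complex I, -0.21 for complex II, -0.50 for complex III, -0.31 for complex IV and -0.33 for complex V. On mutant replicate 2 it was 0.10 to 0.15 in these 5 complexes. The assembly factors differed from the subunits on wild-type replicate 3, at -0.33 against 0.32 for complex I subunits, and all 5 were highest on wild-type replicate 1. The 3′ to 5′ log2 difference of the actin control probe sets, a sign of how complete the labelled copies are, was 1.79, 2.16 and 1.25 on the mutant arrays and 1.54, 1.24 and 2.17 on the wild-type arrays. For Gapdh it was 1.07, 1.39 and 0.75 in mutants and 1.07, 0.73 and 1.20 in wild types. Both controls were lowest on mutant replicate 3 and wild-type replicate 2, the arrays on which the respiratory chain genes were lowest. They were highest on mutant replicate 2 and wild-type replicate 3, not on wild-type replicate 1, where the respiratory chain genes were highest. The part of this control difference in the order of the arrays was not tested. With the mean of both differences as a covariate, an alternative chosen after seeing the data, the median over the 84 genes was -0.16, with 63 lower and 0 called.

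**Figure D3:**
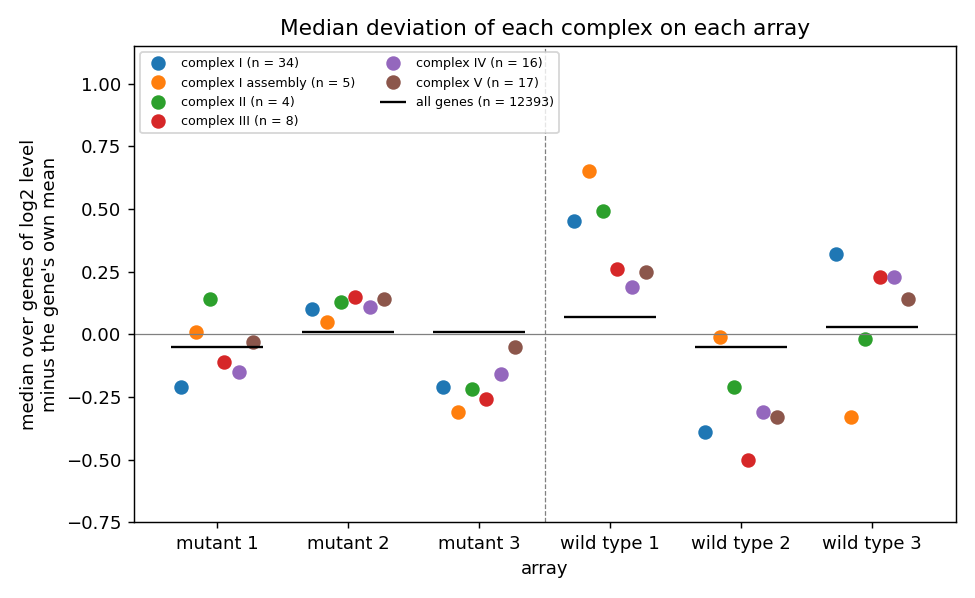
Median deviation of the genes of each complex (coloured points) on each array, as log2 intensity minus each gene's own mean; black bars are the median of all 12393 genes. Wild-type replicate 1 lies highest (0.35 over all 84 genes) and wild-type replicate 2 lowest (-0.32), with the 3 mutants between.

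Complex I takes electrons from NADH. Its largest difference was that of Ndufb1, an accessory subunit of the membrane arm, which had log2 intensities of 4.78, 4.57 and 4.53 in mutants and 5.22, 5.31 and 6.59 in wild types. Each mutant array lay below each wild-type array, at levels near the median probe set, and wild-type replicate 3 stood highest. The difference was -1.08 ± 0.39 (SE), with an unadjusted p of 0.0285 and a limma adjusted p of 0.999; the gene has a single probe set. Groups did not overlap for 3 of the 84 genes, against 8.8% of all genes. Mutants were lower in 2 of these, Ndufb1 and Uqcrb, against 4.58% of all genes, and higher in 1, Cox7c, against 4.22%.

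Ndufb2, another membrane arm subunit, had 9.19, 9.27 and 9.13 in mutants and 10.14, 9.17 and 9.74 in wild types. The groups overlapped through wild-type replicate 2, and the difference was -0.49 ± 0.27 (SE), or -0.27 without wild-type replicate 1. As a class the 10 Ndufb genes had a median difference of -0.24, with 7 lower, the 13 Ndufa genes -0.12, with 11 lower, and the 9 Ndufs and Ndufv genes -0.05, with 5 lower. Without wild-type replicate 1 these medians were 0.04 with 5 lower (Ndufb), -0.05 with 8 lower (Ndufa) and 0.13 with 2 lower (Ndufs and Ndufv). The Ndufa median was also 0.02, with 6 lower, without wild-type replicate 3, and that of Ndufs and Ndufv was 0.10, with 4 lower, without mutant replicate 1.

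The Ndufs and Ndufv genes include those of the catalytic core, with the flavin site and iron-sulphur clusters. Ndufs4, Ndufs5 and Ndufv3 are not core genes, so the median of the class is not that of the core alone. Ndufs1, the largest iron-sulphur subunit, was at 8.35, 8.28 and 8.38 in mutants and 7.90, 8.40 and 8.08 in wild types, a difference of 0.21 ± 0.20. Ndufv1, which binds NADH and flavin, was at 9.07, 10.06 and 9.06 in mutants and 9.89, 8.68 and 9.27 in wild types, a difference of 0.12 ± 0.41. Its partner Ndufv2 differed by -0.05 ± 0.35. The accessory subunit Ndufa6, next to Ndufs1 in p among those higher in mutants, differed by 0.27 ± 0.27. Of the other core subunits, Ndufs3 differed by -0.09 ± 0.21 and Ndufs8 by 0.09 ± 0.41.

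Ndufs7, which carries the last iron-sulphur cluster before ubiquinone, varied most of the core genes. It was at 8.85, 11.10 and 9.03 in mutants and 9.91, 8.33 and 10.43 in wild types. Mutant replicate 2 was the highest array and wild-type replicate 2 the lowest, and the difference of 0.11 ± 0.77 was -0.61 without mutant replicate 2. A second probe set of the gene had the same highest and lowest array, at 8.27 and 6.57.

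Ndufa4, which the symbol places with complex I but which is known as a subunit of complex IV, ran against the rest. It was at 9.31, 8.67 and 8.86 in mutants and 6.42, 10.13 and 9.95 in wild types. It was lowest on wild-type replicate 1, the array on which more members were highest than on any other, and the group difference of 0.12 ± 0.97 was -1.09 without that array. Of the neuronal markers, Snap25, a synaptic fusion protein, was at 9.80, 10.19 and 10.11 in mutants and 4.98, 9.30 and 9.48 in wild types, also lowest on wild-type replicate 1; its part in the Ndufa4 value was not tested. The other members that were lowest on that array were Ndufs1, Sdhc, Cox4i2, Cox5a, Cox8b and Atp5l.

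The assembly factors help to put complex I together and are not part of it. Ndufaf3 was at 7.43, 7.51 and 6.74 in mutants and 8.13, 7.45 and 7.51 in wild types, a difference of -0.47 ± 0.30. Ndufaf7 differed by -0.36 ± 0.31, or -0.07 with wild-type replicate 1 left out, and Ndufaf5 by 0.08 ± 0.34.

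Complex II is succinate dehydrogenase, shared with the Krebs cycle. Its flavoprotein gene Sdha was at 9.75, 9.85 and 9.38 in mutants and 10.58, 9.44 and 9.53 in wild types, a difference of -0.19 ± 0.35. The iron-sulphur gene Sdhb was at 9.11, 9.65 and 9.11 in mutants and 10.17, 8.49 and 9.70 in wild types, a difference of -0.16 ± 0.45. Both were highest on wild-type replicate 1. The membrane anchor gene Sdhc was lowest there, at 8.60, 8.48 and 8.15 in mutants and 7.39, 8.80 and 8.52 in wild types, and differed by 0.17 ± 0.39. The other anchor, Sdhd, was at 9.43, 8.43 and 8.59 in mutants and 8.93, 8.66 and 8.50 in wild types, and differed by 0.12 ± 0.31. Subunits of the same complex thus had unlike values on the same array, and all 4 genes overlapped between groups.

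Complex III passes electrons from ubiquinol to cytochrome c. Uqcrb, its ubiquinone-binding accessory subunit, was at 11.55, 11.52 and 11.39 in mutants and 11.62, 11.56 and 11.77 in wild types. The groups did not overlap, but mutant replicate 1 lay close below wild-type replicate 2, and the difference was -0.17 ± 0.17; a second probe set differed by 0.17 ± 0.30. The core gene Uqcrc1 was at 8.41, 8.48 and 8.67 in mutants and 9.91, 7.69 and 8.47 in wild types, a spread within the wild types that held both the highest and the lowest array. Its difference of -0.17 ± 0.53 was 0.44 without wild-type replicate 1. Uqcrc2, the other core gene, differed by 0.00 ± 0.25, and the Rieske iron-sulphur gene Uqcrfs1 by 0.12 ± 0.19. Uqcrq, which had the next lowest p after Uqcrb among those lower, differed by -0.32 ± 0.33.

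Complex IV reduces oxygen, and several of its subunits exist as isoforms used by different tissues. Of the 10 widely expressed subunits, 5 had lower and 5 higher values in mutants, with a median difference of 0.00. Cox7a2 was at 13.29, 13.35 and 13.29 in mutants and 13.30, 13.36 and 13.21 in wild types, a difference of 0.02 ± 0.16 at a level near the highest probe set of each array, 13.90 to 13.97, where differences can be compressed. Cox4i1 differed by -0.16 ± 0.24, Cox5a by -0.02 ± 0.25, Cox5b by -0.09 ± 0.35, Cox6a1 by -0.25 ± 0.23, Cox6b1 by 0.12 ± 0.43 and Cox8a by -0.21 ± 0.29. Cox7a2l, which joins complexes III and IV into supercomplexes, differed by 0.05 ± 0.35, or 0.38 with wild-type replicate 1 left out. A second probe set of Cox6b1 differed by -0.34 ± 0.54.

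Cox7c, a small membrane subunit, was at 6.08, 6.09 and 6.12 in mutants and 5.88, 5.45 and 5.09 in wild types. Each mutant array lay above each wild-type array, and the 3 mutants were close together. The level read was low, with a mean of 5.79, little above that of the median probe set (5.26). Means of the other widely expressed complex IV subunits ran from 9.58 (Cox8a) to 13.30 (Cox7a2). Whether the low level belongs to the gene or to its probe sets was not tested. The difference was 0.62 ± 0.24 (SE), with an unadjusted p of 0.0367 and a limma adjusted p of 0.999, and a second probe set, below the median in level, differed by 0.18 ± 0.37.

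Of the 6 isoforms restricted to certain tissues, Cox4i2 of lung, Cox7a1 and Cox8b of heart and muscle, and Cox8c of testis were below the median probe set in mean. They differed by 0.14 ± 0.54 (Cox4i2), -0.24 ± 0.33 (Cox7a1), -0.43 ± 0.32 (Cox8b) and -0.12 ± 0.29 (Cox8c). Cox8b was at 3.28, 3.06 and 3.40 in mutants and at 3.90 and 4.11 in wild-type replicates 2 and 3, while wild-type replicate 1 was the lowest array, so that the groups overlapped. Cox6a2, the heart and muscle form, was at 5.93, 8.78 and 6.64 in mutants and 7.17, 6.71 and 6.90 in wild types. Mutant replicate 2 alone stood high, and the difference of 0.19 ± 0.70 was -0.64 without it. The testis form Cox6b2 was also highest on mutant replicate 2, at 6.44, 7.89 and 5.58 in mutants and 6.55, 5.76 and 7.24 in wild types, and its difference of 0.12 ± 0.64 was -0.51 without that array. The muscle markers Ckm and Mb were at 3.20 and 4.28 on mutant replicate 2, both below the median probe set. The summed intensity of the 12 muscle markers was 588, 1083 and 785 in mutants and 1608, 563 and 1004 in wild types, of which Eno3, a muscle enolase, made up 486, 968 and 685 in mutants and 1473, 460 and 899 in wild types. The other 11, all dim, summed to 100 to 116 in mutants and 103 to 135 in wild types. The macrophage marker Csf1r was at 9.49 on mutant replicate 2 and 6.26 to 8.06 on the other 5 arrays; its part in the values of Cox6a2 and Cox6b2 was not tested.

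**Figure D4:**
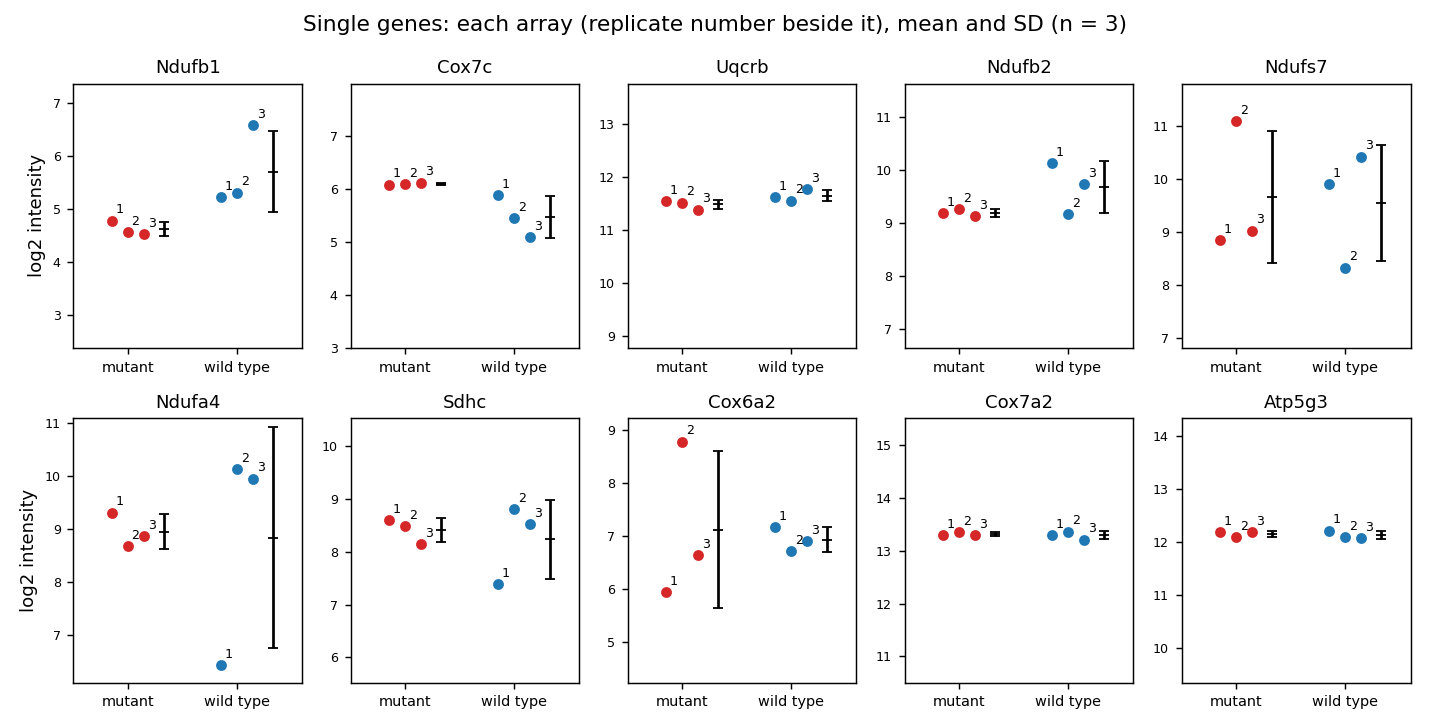
Log2 intensity of 10 respiratory chain genes on each array (points with replicate number; mutants red, wild types blue), with the mean and SD of each group (n = 3), each panel spanning the same number of log2 units. Ndufb1, Cox7c and Uqcrb do not overlap between groups. Ndufa4, Sdhc and Cox6a2 are spread by single arrays, and Ndufs7 varies within both groups.

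Complex V makes ATP with a catalytic F1 head on a membrane rotor. The head genes Atp5a1 and Atp5b differed by -0.02 ± 0.19 and -0.14 ± 0.21, and Atp5c1, the central stalk, by 0.09 ± 0.19. Atp5a1 was at 12.52, 12.34 and 12.44 in mutants and 12.70, 12.41 and 12.25 in wild types. A second probe set of Atp5c1 differed by 0.59 ± 0.27, the widest gap between probe sets of a gene, 0.51, among 41 genes whose next brightest probe set was at or above the median; in 37 of those 41 the sign was the same.

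The proton-carrying c subunit is encoded by Atp5g1, Atp5g2 and Atp5g3, which give the same mature protein. Atp5g1 was at 9.43, 9.58 and 8.98 in mutants and 9.84, 8.89 and 10.11 in wild types, a difference of -0.28 ± 0.36. Atp5g2 differed by -0.08 ± 0.26. Atp5g3 was at 12.19, 12.09 and 12.19 in mutants and 12.22, 12.10 and 12.07 in wild types, a difference of 0.02 ± 0.16, so that it was among the steadiest members. Atp5e, of the central stalk, had the lowest p among the lower complex V genes at -0.33 ± 0.37, and Atp5mpl, a small membrane subunit, differed by 0.04 ± 0.21.

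Other mitochondrial genes were read from lists of pathway members, none of which had a member past the threshold (0 in each, against 0% of all probe sets). The mitochondrial ribosome had 54 of 74 genes lower in mutants and a median difference of -0.12, with the lowest p for Mrpl17 (-0.58 ± 0.27) and Mrps26 (-0.63 ± 0.31). Its median deviation was 0.46 on wild-type replicate 1 and -0.28 on wild-type replicate 2, against -0.12 to 0.04 on the mutants, and without wild-type replicate 1 it had 34 of 74 lower and a median difference of 0.03. Protein import had 14 of 17 lower and a median of -0.12, with the lowest p for Timm44 (-0.50 ± 0.28) and Tomm40 (-0.47 ± 0.31), and other assembly factors 15 of 23 lower and a median of -0.09, with Cox16 at -0.41 ± 0.31 and Timmdc1 at 0.25 ± 0.21. Without wild-type replicate 1 the assembly factors had 10 of 23 lower and a median of 0.05, and protein import 11 of 17 lower and -0.08. Krebs cycle and pyruvate dehydrogenase genes had 11 of 17 lower and a median of -0.09, with Pcx at -0.57 ± 0.33 and Pdha1 at 0.45 ± 0.28. Ubiquinone synthesis and electron transfer flavoprotein genes had 7 of 9 lower and a median of -0.22, with Coq9 at -0.44 ± 0.27 and Coq5 at -0.58 ± 0.43, but 3 of 9 lower and a median of 0.05 without wild-type replicate 1. Of 3 electron carriers and partners that the symbol rule leaves out, cytochrome c (Cycs) differed by -0.10 ± 0.22 and the ATP synthase inhibitor Atpif1 by 0.08 ± 0.53.

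Regulators of mitochondrial genes and upkeep of mitochondrial DNA had 10 of 15 lower and a median of -0.05. Ppargc1a, a coactivator that promotes mitochondrial biogenesis, was at 5.92, 6.29 and 6.59 in mutants and 3.73, 6.01 and 5.40 in wild types, a difference of 1.22 ± 0.58, or 0.57 without wild-type replicate 1. Gabpb1, a subunit of the GABP factor, was at 9.80, 9.65 and 10.15 in mutants and 7.29, 9.85 and 9.39 in wild types, a difference of 1.02 ± 0.65, or 0.24 without that array. Genes for removal of mitochondria had 3 of 4 higher, or 2 of 4 without wild-type replicate 2, with Sqstm1 at 0.41 ± 0.37 and Fundc1, a mitophagy receptor, at 0.71 ± 1.02, or -0.57 without wild-type replicate 1. Ppargc1a, Gabpb1 and Fundc1 were each lowest on wild-type replicate 1. Genes of the mitochondrial genome were not analysed here.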

How the data were processed

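Total RNA of lenses was amplified (Nugen Ovation) and labelled with biotin, 1 array per sample, per the labels' protocols. The authors deposited intensities of 22690 probe sets on a linear scale; per the submitters' processing notes the tool was RMA (version not given), and no source used here describes a step to a linear scale. RMA equalises array distributions and can compress differences of dim and of very bright probe sets. Here log2 of each intensity was taken with no pseudocount; 64 array controls were left out and 22626 probe sets tested, with 0 columns unused. Array medians were 5.19 to 5.32 (log2); the number of arrays limits the precision. In no pair of arrays were over 0.186% of values equal. Names came from the platform annotation of 2016: 20380 probe sets had 1 symbol, 691 several and 1555 none; 20351 matched RefSeq (GRCm38.p6) by Entrez ID, changing 0 symbols. Probe sets with several symbols, 8 of them of respiratory chain genes, were not used. "Dim" means a mean below the median probe set.

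R 4.3.3 and limma 3.58.1 (lmFit, eBayes, no covariate) gave mutant minus wild type with two-sided p-values adjusted by Benjamini-Hochberg over all 22626 probe sets; the fit was tested on simulated data. Named genes were the complex II genes, catalytic core genes (19 of 20 represented), isoforms, the 2 of lowest p in each direction per complex, and the 2 of lowest p in each pathway list. Some examples beyond that rule (Ndufa4, Cox7c's second probe set, and markers) were chosen after their values were seen. The members and lists were chosen with earlier results of these data known. The same holds for the classes within complex I and the promoter motifs. Alternatives changed the scaling (median centring, quantile normalisation, a pseudocount of 16), the model (a replicate block, a trended prior, array weights, a threshold of 0.1), the probe sets (dim ones removed, or all those of a gene averaged) and the arrays (each removed in turn, or wild-type replicate 1 and mutant replicate 2 together); the control 3′ to 5′ difference as a covariate, and each pathway list and class with 1 array left out, were added after seeing the data.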

Additional observations from a re-analysis of the deposited data

How the results depend on the processing

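No respiratory chain gene was called under any alternative run (0 in each). limma called 0 of 22626 probe sets, with 477 genes at an unadjusted p under 0.05, and 7 with array weights (0.224 for wild-type replicate 1 and 5.65 for wild-type replicate 3), with 0 respiratory chain genes by their brightest probe set. With 1 array left out at a time, the median log2 difference ran from -0.31 to 0.05 over the 84 genes, from -0.36 to 0.02 in complex I, -0.45 to 0.01 in its assembly factors, -0.15 to 0.19 in complex II, -0.42 to 0.04 in complex III, -0.24 to 0.06 in complex IV and -0.25 to 0.06 in complex V. Without wild-type replicate 2 the median over the 84 genes was -0.31, with 71 lower, and without mutant replicate 2 it was -0.22, with 69 lower. It was -0.06 without wild-type replicate 1 and mutant replicate 2 together, -0.15 with median centring, which moved the median of all genes to -0.07, -0.06 with quantile normalisation, -0.24 with array weights and -0.16 with the control 3′ to 5′ difference as a covariate. Among named genes, none with a difference larger than its standard error turned round. Genes such as Uqcrb, Uqcrq and Atp5e were called lower by sign alone, with differences no larger than their standard errors. With the replicate block 0 probe sets were called by limma, the lowest adjusted p being 0.999. The median over the 84 genes stayed at -0.09 by design. Each replicate number holds 1 array of each group, so the block cannot change a difference. Same-numbered arrays did not deviate together (r of -0.07, -0.26 and -0.16 over probe sets), so the numbers were not taken as pairs. Between differently numbered arrays r ran from -0.17 to 0.30. It was highest for mutant replicate 2 with wild-type replicate 3, then for mutant replicate 1 with wild-type replicate 2 (0.21). Signal over background limits Ndufb1, Cox4i2, Cox7a1, Cox8b and Cox8c, which were dim. It also limits Cox7c, whose mean of 5.79 lay little above the median probe set.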
